A study of Mus musculus with 2 samples.

Results

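The genes described here are 35 interferon-stimulated genes (ISGs), given as a list by gene name: Isg15, Ifit1, Ifit2, Ifit3, Ifit3b, Ifi44, Ifih1, Irf7, Irf9, Stat2, Oasl1, Oasl2, Oas1a, Mx1, Rsad2, Rtp4, Usp18, Ifi35, Ifi47, Bst2, Xaf1, Zbp1, Trim30a, Dhx58, Parp14, Herc6, Cmpk2, Slfn5, Slfn8, Tgtp2, Igtp, Gbp2, Ifitm3, Eif2ak2 and Phf11b. All 35 were found among the 16184 genes of the single-cell tables, and the list goes by name, with no threshold on a measured value. They were followed across 11 sets of leukocytes, each set gated on the detection of 1 or more lineage genes, and between lungs with and without toxin treatment.

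Type I interferons bind the Ifnar1 and Ifnar2 receptor chains and act through the kinases Jak1 and Tyk2 on the factor ISGF3, of which Stat2 and Irf9 are parts and which binds the interferon-stimulated response element (ISRE) of target promoters. Interferon-gamma, a product of T cells and natural killer (NK) cells, acts through its own receptor and on gamma-activated sites (GAS) of promoters. The products of these genes block virus entry, translation, genome copying and budding, and the same genes are known to be expressed by leukocytes of irradiated and inflamed tissue.

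The cells were live CD45-positive lung leukocytes of Scgb1a1cre/iDTR mice bearing HKP1 tumours, profiled by 10x Genomics 3′ single-cell RNA sequencing. HKP1 is a mouse lung cancer line that was given through the tail vein, and Scgb1a1 is the defining gene of club cells, which line the small airways and secrete its product. Cre driven from Scgb1a1 switches on a diphtheria toxin receptor, so that the toxin can remove cells of that lineage. The PBS group was the control, and the DT group had received diphtheria toxin on days 8 and 9 (2 doses, each of 600 ng per 20 g). Both groups carried the same alleles and tumours, and both had tamoxifen at 2 mg per 20 g on 5 days (days 3 to 7) and radiation of 4 Gy on each of 3 days (days 10 to 12). The treatment protocol also lists anti-PD-1 antibody, 250 µg per mouse at day 6, which the design text does not mention. Lungs were taken 24 to 48 h after radiation. The design names 4 mice per group, no ages are given, and each group is 1 library in which no cell is tied to an animal.

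The comparison asks how the interferon-stimulated genes of lung leukocytes differ in level after the removal of club cells. There were 5702 cells in the PBS library (median 3719 unique molecular identifiers, UMIs, per cell) and 6203 in the DT library (median 2909), of which 5651 and 5896 were kept. The CD45 gene Ptprc was detected in 87.5% of the PBS library's cells against 84.2% in DT, and Scgb1a1 transcripts in 15.4% against 0.475%. This check of the toxin's target went with the labels. Among cells in which Xist or a Y-linked gene was seen but not both kinds, 87.2% in PBS and 31.9% in DT carried the Y-linked genes, so the libraries also differ in the sex of their mice, and in every gate the Y-linked share was lower in DT. Treatment and sex cannot be told apart by comparing whole libraries. Values within male-called or female-called cells are given only where both libraries had at least 50 such cells in the gate. The Cd4, Foxp3, Treml4, Siglech and Cd209a gates had too few, so their differences carry no value within 1 sex. Since each group is 1 library, the groups were not tested against each other, and every interval below is a 95% interval for counting error only.

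Many of these genes hold, in their promoters, the core of the element through which type I interferon acts. RefSeq promoter windows (GRCm38.p6, from 250 bases before to 50 bases after the start site) were matched by symbol for 29 members. The ISRE core, GAAA followed by any 2 bases and GAAA, searched on both strands with overlaps allowed, was present in 18 of the 29 (62.1%), against 3.99% of 27025 genes with a window. The GAS pattern, TTC followed by any 3 bases and GAA, was present in 8 of the 29 (27.6%), against 9.55% of genes, and both patterns in 6 (Oas1a, Bst2, Tgtp2, Igtp, Ifitm3 and Eif2ak2), against 0.614% of genes. Over all windows of this length, 3.44% held the ISRE core and 8.30% the GAS pattern. The matched members without the ISRE core were Ifit2, Ifi44, Irf7, Irf9, Oasl1, Oasl2, Ifi35, Ifi47, Xaf1, Herc6 and Cmpk2. Mx1, Rtp4, Usp18, Zbp1, Dhx58 and Parp14 were not matched. The 28 ISRE matches were counted per window, so a site of Slfn8 shared by its overlapping windows entered more than once. They began at a median of 71 bases before the start site, from 222 bases before it in Stat2 to 32 bases after it in Ifih1. The windows below show the 250 bases before the start site of genes on which the results turn: Isg15, Ifit3, Rsad2 and Gbp2 with the ISRE core alone, and Bst2 and Igtp with both patterns. Capitals mark the ISRE and GAS matches, which overlap or abut in some genes. A match describes the letters of the window and is not evidence of binding.
Isg15 (chr4:156200819-156201068, minus strand): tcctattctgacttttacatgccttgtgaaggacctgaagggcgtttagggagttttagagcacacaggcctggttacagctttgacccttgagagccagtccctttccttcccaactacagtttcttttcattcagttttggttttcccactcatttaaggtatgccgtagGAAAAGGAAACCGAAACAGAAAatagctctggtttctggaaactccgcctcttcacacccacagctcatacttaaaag
Ifit3 (chr19:34583279-34583528, plus strand): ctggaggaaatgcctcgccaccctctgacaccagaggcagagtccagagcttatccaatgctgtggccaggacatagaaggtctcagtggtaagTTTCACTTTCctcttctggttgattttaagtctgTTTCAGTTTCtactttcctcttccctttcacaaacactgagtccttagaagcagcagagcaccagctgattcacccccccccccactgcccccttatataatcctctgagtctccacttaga
Rsad2 (chr12:26456453-26456702, minus strand): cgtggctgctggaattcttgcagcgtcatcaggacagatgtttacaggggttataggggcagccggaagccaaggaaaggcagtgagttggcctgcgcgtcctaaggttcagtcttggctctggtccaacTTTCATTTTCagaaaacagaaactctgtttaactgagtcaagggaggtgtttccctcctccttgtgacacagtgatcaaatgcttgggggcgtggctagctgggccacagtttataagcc
Gbp2 (chr3:142620413-142620662, plus strand): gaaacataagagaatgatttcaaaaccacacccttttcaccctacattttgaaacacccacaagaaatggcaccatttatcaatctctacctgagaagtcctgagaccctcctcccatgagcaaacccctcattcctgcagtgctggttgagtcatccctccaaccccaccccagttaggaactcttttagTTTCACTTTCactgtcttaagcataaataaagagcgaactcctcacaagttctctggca
Bst2 (chr8:71537473-71537722, minus strand): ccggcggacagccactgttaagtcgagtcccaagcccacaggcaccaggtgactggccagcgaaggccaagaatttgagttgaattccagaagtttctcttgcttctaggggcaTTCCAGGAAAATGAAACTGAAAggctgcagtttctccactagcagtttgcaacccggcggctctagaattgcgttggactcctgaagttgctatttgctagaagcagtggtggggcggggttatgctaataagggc
Igtp (chr11:58199306-58199555, plus strand): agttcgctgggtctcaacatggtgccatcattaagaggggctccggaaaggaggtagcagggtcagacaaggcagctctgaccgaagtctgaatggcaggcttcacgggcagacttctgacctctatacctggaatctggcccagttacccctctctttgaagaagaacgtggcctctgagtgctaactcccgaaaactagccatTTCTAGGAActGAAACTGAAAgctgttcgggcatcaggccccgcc

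In Isg15 the 3 ISRE matches overlap in 1 run that begins 78 bases before the start site. Ifit3 holds 2 separate matches, at 156 and 122 bases before it, and its neighbour Ifit3b has the same 2 at 188 and 154 bases. In Bst2 a GAS match at 136 bases runs into 2 overlapping ISRE matches at 130 and 124 bases, and in Igtp a GAS match at 45 bases is followed by an ISRE match at 34 bases. The single match of Gbp2 lies 59 bases before the start site and that of Rsad2 120 bases before it.

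The 11 gates were cells with at least 1 UMI of Cd4, of Cd8b1, of Foxp3 (regulatory T cells), of Ncr1 (NK cells), of Cd79a (B cells), of both Csf3r and S100a8 (neutrophils), of both Ly6c2 and Ccr2 (classical monocytes), of Treml4 (nonclassical monocytes), of C1qa (macrophages), of Siglech (plasmacytoid dendritic cells) and of Cd209a (type 2 dendritic cells). Gate sizes ran from 55 cells (Siglech, DT) to 1561 cells (Cd79a, PBS). Markers not used for gating were seen in 90.9% or more of the cells of each gate checked except the C1qa gate in PBS (89.8%) and the Treml4 gate, where 82.9% in PBS and 76.8% in DT had a UMI of any of 5 nonclassical monocyte markers. Classical monocyte markers were more common than the gate's own, in 95.4% and 86.9% of the Treml4 gate and in 92.8% and 95.2% of the C1qa gate, whose own macrophage markers were in 89.8% and 92.3%. The Ly6c2 with Ccr2 gate has no such check, since its marker list holds Ly6c2 itself. Some lists did not separate the gates. Type 2 dendritic cell markers were in 98.4% of the Cd79a gate in both libraries, and B cell markers in 98.4% and 97.9%. CD8 T cell markers, a list that holds Cd3e and Trac, were in 91.5% and 94.0% of the Cd4 gate. In the Siglech gate of DT, type 2 dendritic cell (96.4%) and classical monocyte (92.7%) markers were more common than its own (90.9%). Gates overlap: 970 PBS and 871 DT cells were in several gates, and 1020 and 1282 in none. Of the Treml4 gate, 36.9% of its cells in PBS and 28.2% in DT were in no other gate. The same shares were 31.0% and 40.5% in the Ly6c2 with Ccr2 gate and 19.8% and 36.4% in the Siglech gate. A UMI can also come from free RNA or a doublet, and no doublet was removed.

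Interferon-stimulated genes were highest in the myeloid gates and lowest in B and NK cells, in both libraries. Summed over the 35 genes, the level in PBS was 7798 CPM (UMIs of the genes scaled by the total UMIs of the gate) in the Cd209a gate, 7422 in the Ly6c2 with Ccr2 gate, 6451 in the Treml4 gate, 6338 in the Siglech gate and 6271 in the Csf3r with S100a8 gate. The C1qa gate had 4600 CPM. Among lymphocytes the summed level in PBS was 3662 CPM in the Foxp3 gate, 3233 in the Cd4 gate, 2777 in the Cd8b1 gate, 2271 in the Ncr1 gate and 1923 in the Cd79a gate. The counting interval of the Siglech gate (6163 to 6517 CPM) overlapped those of the Treml4 and the Csf3r with S100a8 gates, and no other neighbours in this order overlapped. The order among myeloid gates depended on the genes and cells taken. Without Ifitm3 and Bst2 the Csf3r with S100a8 gate was highest, at 4305 CPM in PBS and 4708 in DT. The Ly6c2 with Ccr2 gate then had 4171 and 4375, and the Cd209a gate 3801 and 4063. Among cells in no other gate, Ly6c2 with Ccr2 cells had 10269 and 10602 CPM and Cd209a cells 9073 and 8086.

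**Figure D1:**
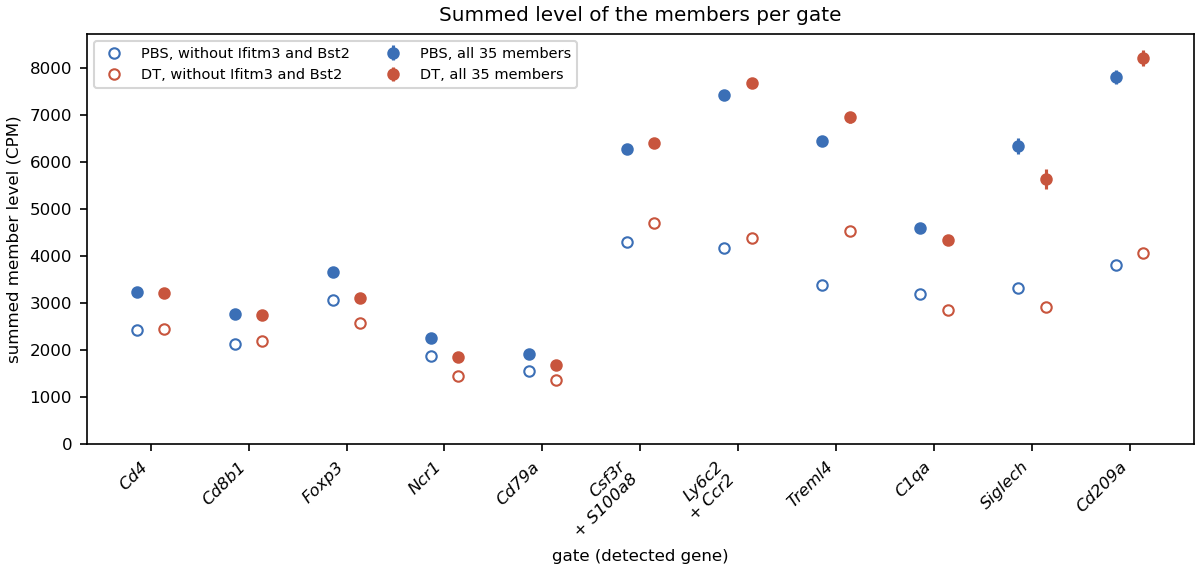
Summed level of the 35 interferon-stimulated genes in CPM for each gate and library, with 95% counting intervals. Over all 35 genes the Cd209a and Ly6c2 with Ccr2 gates are highest and the Cd79a gate is lowest in both libraries. Open symbols leave out Ifitm3 and Bst2, and by them the Csf3r with S100a8 gate is highest in both.

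A few genes carried this sum. Each UMI of a 3′ library counts 1 captured transcript end, so levels of different genes were compared as CPM with no division by length. Ifitm3, which restricts viruses at endosomal membranes, gave 27.7% of the members' UMIs in PBS and 26.6% in DT. Ifitm3 with Gbp2, Bst2, Isg15 and Ifi47 gave 51.0% and 50.8%. At the other end Ifi44 gave 0.13% and 0.16% and Oas1a 0.15% and 0.16%. The sum is therefore weighted to genes that some gates hold at a high level. The share of cells with 5 or more members detected, described next, counts each detected gene once. Abundant genes are still detected more often: in thinned PBS cells under that cut, Ifitm3 was seen in 21.6% and Ifi44 in 0.153%.

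In cells thinned to 1000 UMIs, 5 or more of the 35 genes were detected in 883 of 5449 cells of the PBS library (16.2%) and 1108 of 5587 of the DT library (19.8%). By this measure the Ly6c2 with Ccr2 gate (33.4% in PBS, 36.6% in DT) and the Csf3r with S100a8 gate (33.2% and 33.0%) were highest in PBS, and the Treml4 gate (38.0%) was highest in DT. The Cd79a gate (5.70% and 3.75%) and the Ncr1 gate (6.56% and 4.28%) were lowest. Every gate held UMIs of these genes, some of which may be free RNA, so no gate gives the free RNA background. The Cd79a gate, at median depths of 2972 and 2491 UMIs, stands as the lowest value measured. Foxp3 cells were above the other T cell gates in PBS (23.4%, interval 17.2 to 30.5%), against 13.1% in the Cd4 gate and 10.5% in the Cd8b1 gate. Thinning left out 202 PBS and 309 DT cells. Without thinning the share was 55.2% in PBS and 52.9% in DT, so the order of the libraries depends on depth.

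**Figure D2:**
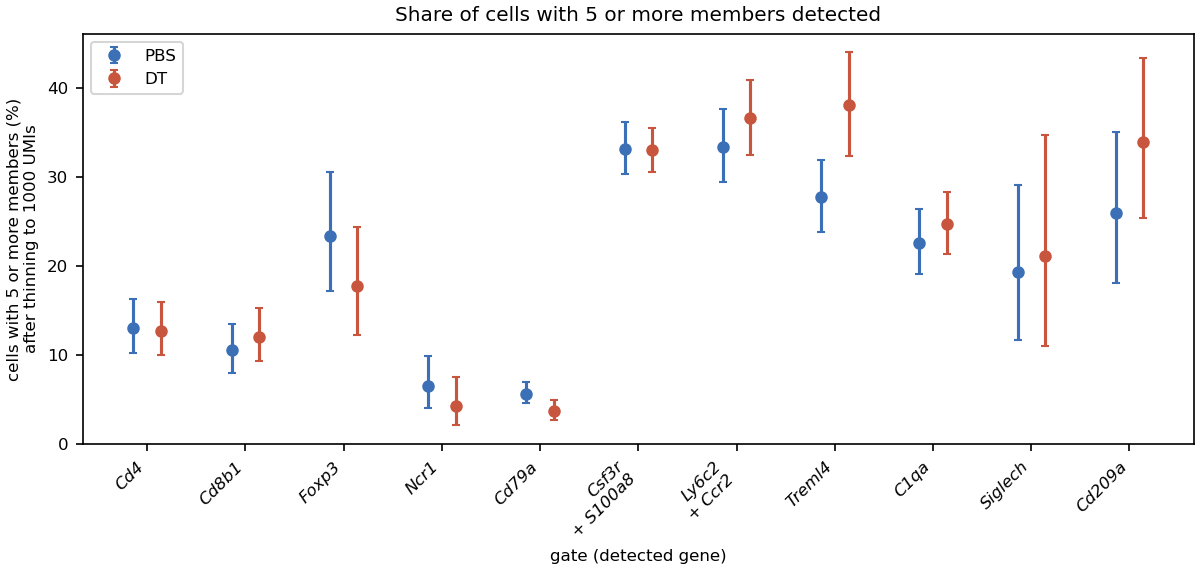
Share of cells, in percent, with 5 or more of the 35 genes detected after thinning to 1000 UMIs, by gate and library, with 95% Clopper-Pearson intervals. The intervals of the libraries overlap in every gate but Treml4, and for all cells the DT share (19.8%) lies above the PBS share (16.2%).

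Among cells with 5 or more members in the Csf3r with S100a8 gate of PBS, the members seen most often were Ifitm3 (81.4%), Isg15 (60.2%), Rtp4 (53.4%) and Oasl2 (51.0%). These cells were chosen by detection of the same genes, so higher detection in them follows from the choice. In the other thinned cells of that gate Ifitm3 was still seen in 58.1%, against 11.7% for Isg15, 17.6% for Rtp4 and 18.9% for Oasl2. In the Cd4 gate of PBS the members seen most often in cells with 5 or more were Tgtp2 (57.6%), Bst2 (53.0%), Ifi47 (48.5%) and Isg15 (40.9%). In the other thinned cells of the Cd4 gate Tgtp2 was seen in 10.9%, Bst2 in 13.9% and Isg15 in 3.87%, and Ifi47 was also less common there.

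**Figure D3:**
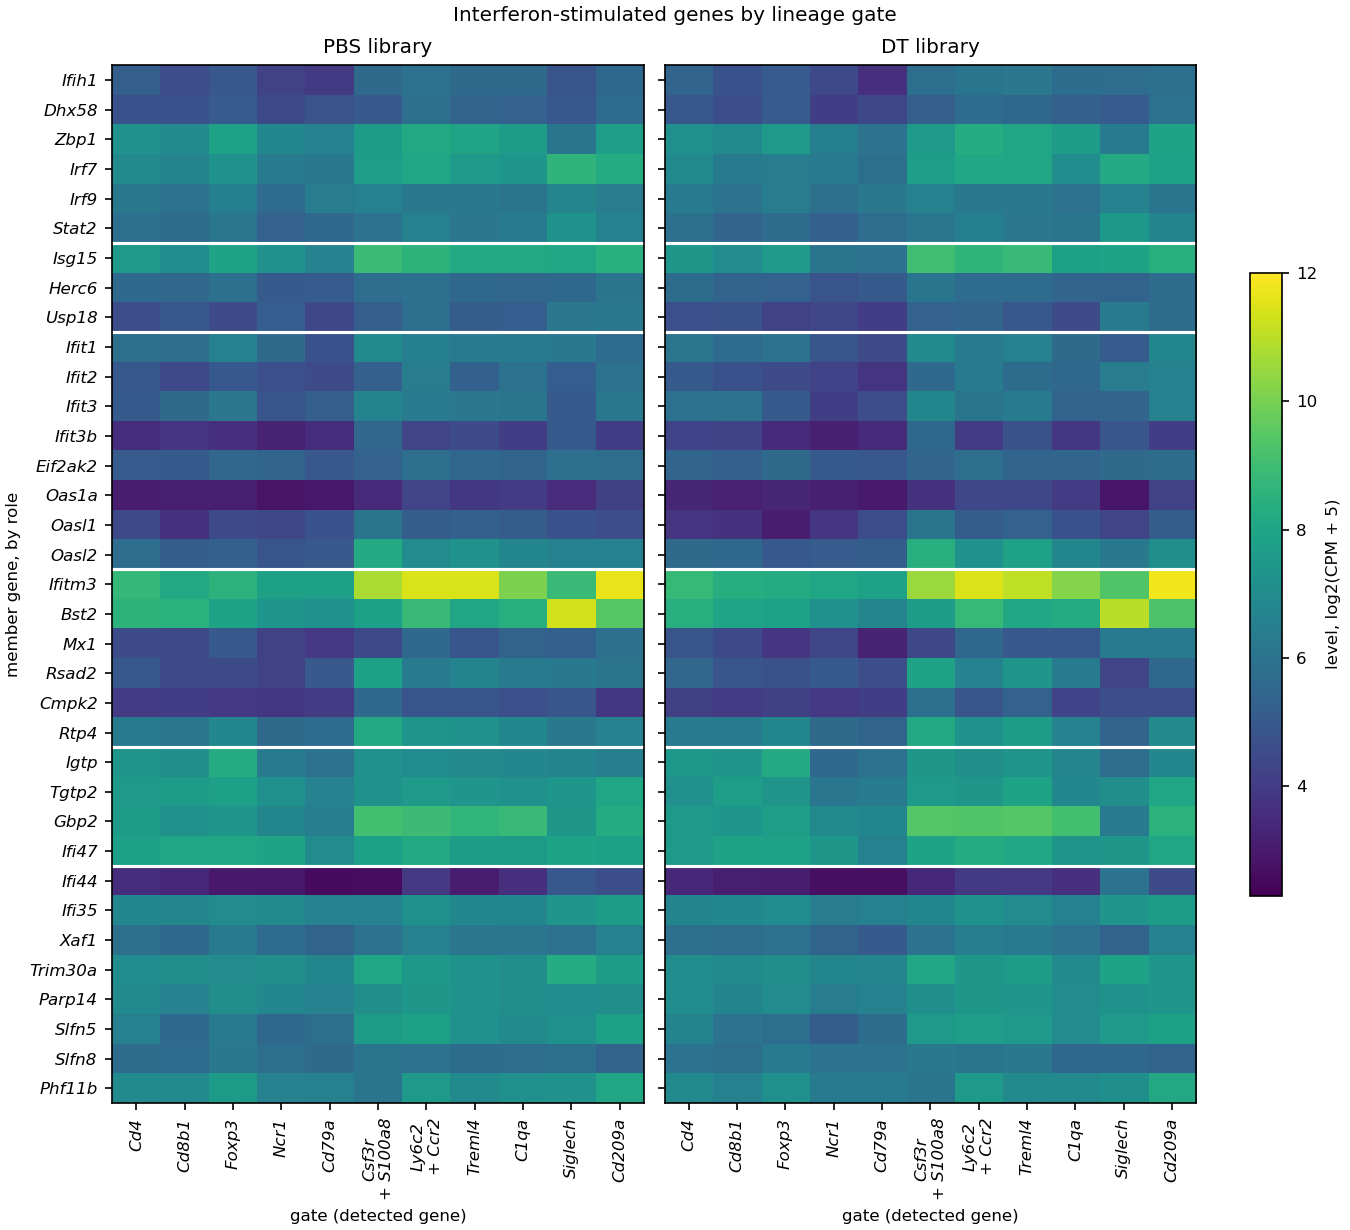
Level of each of the 35 genes (log scale, ordered by role) in each gate, for PBS and DT side by side. Bst2 is highest in the Siglech gate and Rsad2 in the Csf3r with S100a8 gate in both libraries, and 24 of the 35 genes have the same highest gate in both.

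The transcription factors of the pathway were highest in plasmacytoid dendritic cells, and its sensors in monocytes in PBS. Irf7, the factor that drives type I interferon production in plasmacytoid dendritic cells, was at 383 CPM in PBS and 299 in DT in the Siglech gate, and at 134 and 144 over all cells. Stat2 (152 and 171 CPM) and Irf9 (100.3 and 90.9 CPM), parts of ISGF3, were also highest there. For Irf9 the lead in DT was small and rested on 42 UMIs, with 89.3 CPM on 556 UMIs in the Csf3r with S100a8 gate. Ifih1 (MDA5), which senses long double-stranded RNA, was highest in the Ly6c2 with Ccr2 gate in PBS (57.9 CPM) and in the Treml4 gate in DT (65.6 CPM). Dhx58 (LGP2), a regulator of the same sensors, reached 54.2 CPM in the Ly6c2 with Ccr2 gate in PBS and 56.3 in the Cd209a gate in DT. Zbp1, a sensor of Z-form nucleic acids, was highest in the Ly6c2 with Ccr2 gate, at 285 and 313 CPM.

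Summed over its 3 genes, the ISG15 system was highest in neutrophils, at 563 CPM in PBS and 620.1 in DT. Isg15 encodes a ubiquitin-like modifier, and its level in the Csf3r with S100a8 gate was 481 CPM in PBS and 522 in DT, against 92.6 and 58.2 in the Cd79a gate. Herc6, the ligase that attaches ISG15 in mice, was at 60.5 CPM in the Cd209a gate in PBS and 61.7 in the Csf3r with S100a8 gate in DT. Usp18 removes ISG15 and dampens the interferon receptor, and was highest in the Cd209a gate in PBS (66.9 CPM) and in the Siglech gate in DT (75.7 CPM).

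Genes that control translation and RNA were highest in neutrophils, monocytes or dendritic cells. Ifit1, Ifit3 and Ifit3b, which bind foreign RNA and block its translation, were highest in the Csf3r with S100a8 gate in both libraries: Ifit1 at 113 and 119 CPM, Ifit3 at 95.7 and 102, Ifit3b at 39.9 and 41.8. Ifit2 was highest in the Ly6c2 with Ccr2 gate in PBS (81.1 CPM) and in the Cd209a gate in DT (92.9 CPM). Oasl1 and Oasl2, relatives of the oligoadenylate synthetases, were highest in neutrophils, Oasl2 at 297 and 328 CPM and Oasl1 at 61.2 and 62.8. Oas1a, a synthetase that activates RNase L, stayed at or under 16.0 CPM in every gate. Eif2ak2 (PKR), a kinase that halts translation on double-stranded RNA, was the most even of the group, from 25.6 CPM (Cd79a) to 52.7 CPM (Siglech) in PBS. Some members share sequence with a near copy: 14.9% of the 50-base words in the last 500 bases of Ifit3, where 3′ reads fall, are found in Ifit3b, and 56.1% of those of Oas1a in Oas1g.

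Blocks of entry, budding and copying included the most cell-type-bound members. Bst2 (tetherin), which holds budding virions and is known as a surface mark of plasmacytoid dendritic cells, was at 2556 CPM in PBS and 2049 in DT in the Siglech gate, and the next gate, Cd209a, was at 716 and 622. Ifitm3 was highest in the Cd209a gate (3281 and 3520 CPM), with 2785 and 2853 in the Ly6c2 with Ccr2 gate, 2816 and 2144 in the Treml4 gate, and 213 and 224 in the Cd79a gate. Rsad2 (viperin) and its neighbour Cmpk2, which act on nucleotides needed by viruses, were highest in neutrophils, Rsad2 at 219 and 232 CPM and Cmpk2 at 43.5 and 52.2. Rtp4, an inhibitor of flavivirus replication, was highest there too, at 282 and 277 CPM. Mx1, a dynamin-like GTPase, was low in all gates, with a highest level of 53.3 CPM in the Cd209a gate of PBS and 75.7 CPM in the Siglech gate of DT.

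The GTPases that interferon-gamma also induces had another order. Igtp (Irgm3) was highest in the Foxp3 gate, at 301 and 298 CPM. Tgtp2 was highest in the Cd209a gate (261 and 259 CPM), and Ifi47 in the Ly6c2 with Ccr2 gate (286 and 302). Gbp2, a guanylate-binding protein of the same defence, was highest in the Csf3r with S100a8 gate in PBS (526 CPM) and in the Treml4 gate in DT (683 CPM). Tgtp2 cannot be told apart from Tgtp1 by 3′ reads, since the last 500 bases of their transcripts share 100% of their 50-base words.

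Of the remaining genes, Ifi35, an interferon-induced leucine zipper protein, Xaf1, an antagonist of apoptosis inhibitors, and Phf11b were highest in the Cd209a gate in both libraries, at 197, 89.2 and 251 CPM in PBS and 197, 87.8 and 277 in DT. Slfn5 was highest in the Ly6c2 with Ccr2 gate in PBS (223 CPM) and in the Cd209a gate in DT (222 CPM). Slfn8, another Schlafen family gene, was highest in the Foxp3 gate (67.2 and 70.7 CPM). Trim30a, a feedback inhibitor of Toll-like receptor signalling, was at 309 CPM in the Siglech gate of PBS and 262 CPM in the Csf3r with S100a8 gate of DT. Parp14, a mono-ADP-ribosyl transferase, was highest in the Ly6c2 with Ccr2 gate (169 and 167 CPM), and Ifi44, an interferon-induced cytoplasmic protein, in the Siglech gate (25.7 and 58.4). For 24 of the 35 genes the gate with the highest level was the same in both libraries. The gate with the lowest level was the Cd79a gate for 17 genes in PBS and 14 in DT, and the Ncr1 gate for 11 and 13.

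Over all cells the summed level was 4169 CPM in PBS and 4578 CPM in DT, a log2 ratio of 0.14 (interval 0.12 to 0.15). Of the 35 genes 32 were above 0, beside 58.8% of 15928 measured genes. None of the 35 differed by 1.5-fold or more on the scale used here, the log2 ratio of CPM with 5 CPM added to both sides. By that much 0.785% of the 15928 measured genes were higher and 0.559% lower. Gbp2 (276 CPM in PBS, 390 in DT, log2 ratio 0.49), Rsad2 (61.1 and 85.2, 0.45) and Oasl2 (91.4 and 125, 0.43) had the largest ratios. The neutrophil gate, where these genes are high, held 18.7% of kept cells in PBS and 25.3% in DT. The ratio of all cells was -0.09 in male-called cells and 0.34 in female-called cells, so its direction was not the same in both sexes.

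Within gates, the log2 ratio of the summed level was -0.01 in the Cd4 gate, -0.02 in Cd8b1, -0.23 in Foxp3, -0.29 in Ncr1, -0.19 in Cd79a, 0.03 in Csf3r with S100a8, 0.05 in Ly6c2 with Ccr2, 0.11 in Treml4, -0.08 in C1qa, -0.17 in Siglech and 0.07 in Cd209a. The ratios of the Cd4 and Cd8b1 gates had counting intervals that held 0. Over the 377 pairs of a member and a gate with at least 20 UMIs, 16 were at least 1.5-fold higher in DT and 25 at least 1.5-fold lower. Of 119908 pairs of any gene and a gate, 3.31% and 2.99% were. In no gate was that fold passed by 16 of the 35 genes, and the same count over all genes was not made. The 16 were Bst2, Dhx58, Eif2ak2, Herc6, Ifi35, Ifi47, Ifitm3, Irf9, Oas1a, Parp14, Phf11b, Slfn5, Slfn8, Stat2, Trim30a and Xaf1. The fold was passed in opposite directions in different gates by 7 of the 35, where 4.25% of 13345 genes measured in 2 or more gates and 4.71% of 6596 measured in every gate did so.

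**Figure D4:**
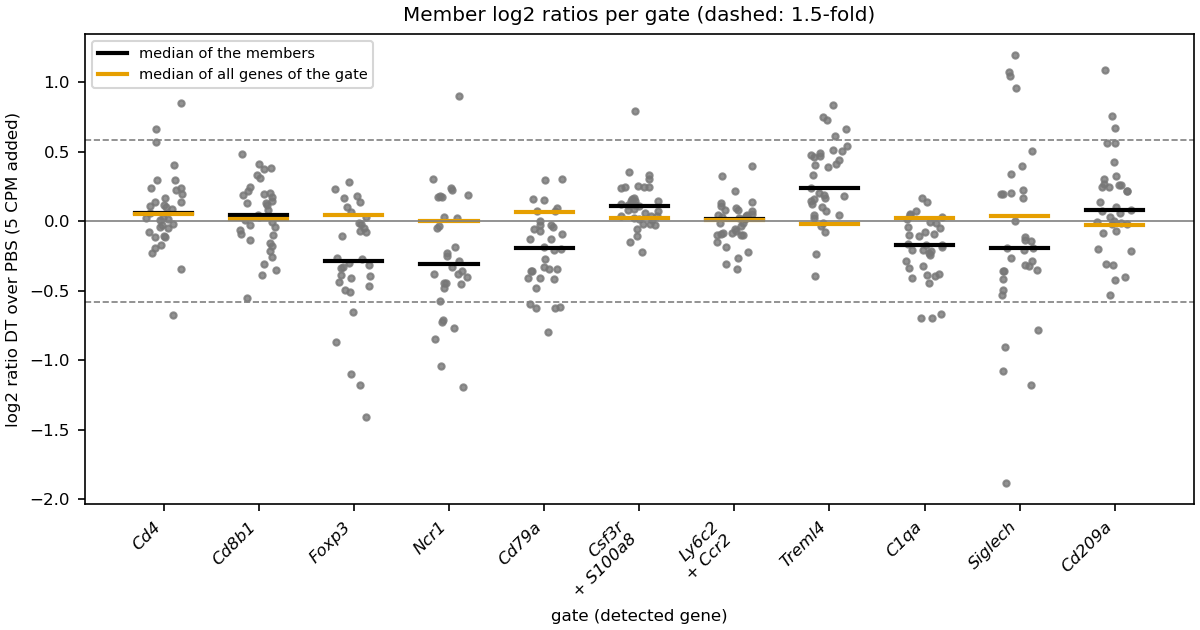
Log2 ratio of DT over PBS (5 CPM added) of each member in each gate, 1 point per member, with the members' median and the 1.5-fold limits. Points lie mostly below 0 in the Foxp3, Ncr1, Cd79a, C1qa and Siglech gates and mostly above 0 in the Treml4 and Csf3r with S100a8 gates. They are more evenly split in the Cd4, Cd8b1, Ly6c2 with Ccr2 and Cd209a gates.

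In the Cd4 and Cd8b1 gates few members differed. Markers of other types were seen in the Cd4 gate: regulatory T cell markers were seen in 73.6% of its cells in both libraries, and classical monocyte markers in 38.4% in PBS and 35.5% in DT. In the Cd4 gate 2 of 35 were at least 1.5-fold higher (2.45% of 12142 genes were) and 1 was lower (1.47% of genes). Ifit3 was at 28.3 CPM in PBS and 55.2 in DT (log2 ratio 0.85, interval of the plain UMI ratio 0.60 to 1.33), and Ifit3b at 7.01 and 14.0 CPM (0.66). Oasl1 was the lower gene, at 16.7 and 8.61 CPM (-0.67). Over 11 alternative settings Ifit3 kept the fold in 10 and Ifit3b and Oasl1 in 8 each, and by the mean of the deposited log2 values none of them did (0.16, 0.09 and -0.27). Among the 11, leaving out shared barcodes changed none of these ratios, and dropping the cell filter hardly changed them. In the Cd8b1 gate none of 35 passed the fold, with 1.96% of 12040 genes higher and 1.54% lower. The members' median ratio was 0.06 in the Cd4 gate and 0.05 in the Cd8b1 gate, beside 0.05 and 0.02 over all genes. In male-called cells of the Cd8b1 gate the summed ratio was -0.31.

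Regulatory T cells, which had the highest T cell level in PBS, were closer to the other T cells in DT. Of 32 measured members in the Foxp3 gate none was higher (7.26% of 9128 genes were) and 5 were lower by 1.5-fold or more (4.4% of genes). Irf7 was at 152 CPM in PBS and 80.8 in DT (log2 ratio -0.87, interval -1.29 to -0.54), although it was seen in 31.4% and 33.7% of cells. The fold of Irf7 was not kept with exclusive gates (-0.42), by mean CPM over cells (-0.58) or by the mean of the deposited log2 values (-0.0069). Ifit3 was at 65.4 and 27.8 CPM (-1.10), and Ifit1 at 89.0 and 54.7 CPM (-0.65, or -0.54 with 20 CPM added). Oasl1 (19 UMIs in PBS, 4 in DT) and Mx1 (30 and 11 UMIs) were the others and rest on few UMIs. The members' median was -0.29 beside 0.05 over all genes, and 24 of the 32 were below 0, while 56.2% of genes were above 0. Igtp, at 301 and 298 CPM, did not share this. The share of cells with 5 or more members was 23.4% in PBS and 17.8% in DT (interval 12.3 to 24.4%), so the intervals overlap. Regulatory T cell markers summed to 2784 CPM in PBS and 3559 in DT in this gate, neutrophil markers to 1309 and 2700 CPM, and their part in the result was not tested.

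In NK cells Isg15 and Usp18, genes of the ISG15 system, were lower in DT. Isg15 in the Ncr1 gate was at 144 CPM in PBS and 60.0 in DT (log2 ratio -1.19, interval -1.65 to -0.88), although a UMI of it was seen in 13.7% and 11.2% of cells. Herc6, the other gene of that system, was at 27.8 and 23.1 CPM (-0.23, interval -0.99 to 0.43) and did not pass the fold. Tgtp2 was at 139 and 64.6 CPM (-1.04), and Usp18 at 31.7 and 15.4 CPM (-0.85). Igtp, Ifit1 and Ifit3 were also lower by 1.5-fold or more, making 6 of 32 measured members, where 4.28% of 9666 genes were lower. Rsad2 was the 1 member that was higher, on 20 UMIs in PBS and 37 in DT (log2 ratio 0.90), where 4.6% of genes were. Its direction changed with the cells taken: the log2 ratio of Rsad2 was -0.73 without cells that also carried Csf3r and S100a8, 0.31 in cells that no other gate held and -0.08 in male-called cells. Over 12 alternative settings Rsad2 kept the fold in 7, Usp18 in 8 (-0.24 with exclusive gates) and Isg15 and Tgtp2 in 11 each, and by the mean of the deposited log2 values all 4 missed it (Isg15 at -0.24, Tgtp2 at -0.50, Usp18 at -0.22, Rsad2 at 0.14). Neutrophil markers in the Ncr1 gate summed to 1230 CPM in PBS and 2365 in DT. The members' median ratio was -0.31 beside 0.00 over all genes, and -0.55 in male-called cells.

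B cells had the lowest levels and were lower still in DT. In the Cd79a gate 5 of 34 measured members were at least 1.5-fold lower (2.07% of 12633 genes were) and none was higher (2.79% of genes were). Isg15 was at 92.6 CPM in PBS and 58.2 in DT (log2 ratio -0.63), Ifit2 at 18.4 and 8.46 CPM (-0.80), and Mx1 at 9.86 and 4.62 CPM (-0.63). Zbp1, at 90.7 and 58.2 CPM (-0.60), was detected in 21.5% of cells in PBS and 11.2% in DT, and Ifit3 was at 32.2 and 19.2 CPM. In the thinned cells of this gate 35.7% in PBS and 42.5% in DT had none of the 35 genes. Over 13 alternative settings Isg15 and Ifit2 kept the fold in 10 each and Mx1 in 7, and by the mean of the deposited log2 values all 3 missed it (-0.41, -0.20 and -0.12). Markers of other cells also differed in this gate, with alveolar macrophage markers at 388 CPM in PBS and 46.9 in DT, classical monocyte markers at 1150 and 776, macrophage markers at 802 and 585 and epithelial markers at 67.0 and 881, and their part in the result was not tested. The direction was not the same in both sexes: the summed ratio was -0.59 in male-called cells and 0.44 in female-called cells, and the ratio of Isg15 was -1.08 and 0.12.

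Neutrophils and classical monocytes, the gates with the highest shares of cells with 5 or more members in PBS, were close to equal between the libraries. In the Csf3r with S100a8 gate 1 of 35 members, Ifi44, was higher by 1.5-fold (1.53% of 12522 genes were), at 6 UMIs in PBS and 35 in DT, and none was lower (1.54% of genes were). Isg15 was at 481 and 522 CPM (log2 ratio 0.12), Rsad2 at 219 and 232 (0.08), and Gbp2 at 526 and 672 (0.35), while Ifitm3 was at 1749 and 1498 (-0.22). Over the members 28 of 35 were above 0 (54.4% of genes were), with a median of 0.11 beside 0.02 over all genes. In male-called neutrophil-gate cells the difference in the share with 5 or more members was -10.2 percentage points and the members' median was -0.11. In the Ly6c2 with Ccr2 gate no member passed the fold in either direction (1.14% of 12240 genes were higher and 0.923% lower). The members' median there was 0.02, and 18 of 35 were above 0 (51.1% of genes were). Gbp2 (491 and 650 CPM, 0.40) and Usp18 (51.3 and 39.5 CPM, -0.34) marked the ends of its range. In male-called cells there the median was 0.07 and the summed ratio 0.29, against 0.05 in all cells of the gate.

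The Treml4 gate was the one with the most members higher in DT. Of 35 members 5 were at least 1.5-fold higher (4.63% of 11141 genes were) and none was lower (4.89% of genes were). Above 0 were 30 members, beside 47.4% of genes. Gbp2 was at 403 CPM in PBS and 683 in DT (log2 ratio 0.75, interval 0.65 to 0.86), Rsad2 at 93.6 and 159 (0.73), Isg15 at 292 and 465 (0.66, or 0.57 by the mean of the deposited log2 values) and Oasl2 at 146 and 226 (0.62). Ifi44, with 14 and 20 UMIs, was the other. Ifitm3 went the other way, from 2816 CPM in PBS to 2144 in DT (-0.39). Ifitm3 made up 43.7% of the members' UMIs in PBS. The summed log2 ratio was 0.11 over all members, 0.43 without Ifitm3 and Bst2, and 0.0058 without Igtp, Tgtp2, Gbp2 and Ifi47. The members' median was 0.24 beside -0.02 over all genes. In thinned cells the share with 5 or more members was 27.7% in PBS (137 of 494, interval 23.8 to 31.9%) and 38.0% in DT (108 of 284, interval 32.4 to 44.0%). Without thinning it was 84.3% and 77.5%, at median depths of 6788 and 4836.5 UMIs, so the direction depends on thinning.

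Overlap with other gates and marker levels in the Treml4 gate differed between the libraries. Cells that also carried Csf3r and S100a8 numbered 167 among the 502 PBS cells and 146 among the 298 DT cells, and the gate's neutrophil markers summed to 8140 and 12223 CPM, its nonclassical monocyte markers to 953 and 592 CPM and its macrophage markers to 1755 and 3517 CPM. In the cells that also carried Csf3r and S100a8, the share with 5 or more members was 40.4% in PBS and 41.0% in DT. In the 335 PBS and 152 DT cells without both genes, 70 of 328 and 49 of 140 thinned cells had 5 or more members, and Isg15 was at 177 and 351 CPM. In the cells that no other gate held (185 and 84), the share was 13.5% and 39.7%, Isg15 was at 104 and 454 CPM, Rsad2 at 25.7 and 161 CPM and Gbp2 at 274 and 654 CPM. There the neutrophil markers were at 237 and 818 CPM, the macrophage markers at 555 and 1409 CPM and the median depth at 6045 and 2656.5 UMIs, and their part in the result was not tested. The DT gate held 48 male-called cells, under the 50 required, so no value within 1 sex is given.

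**Figure D5:**
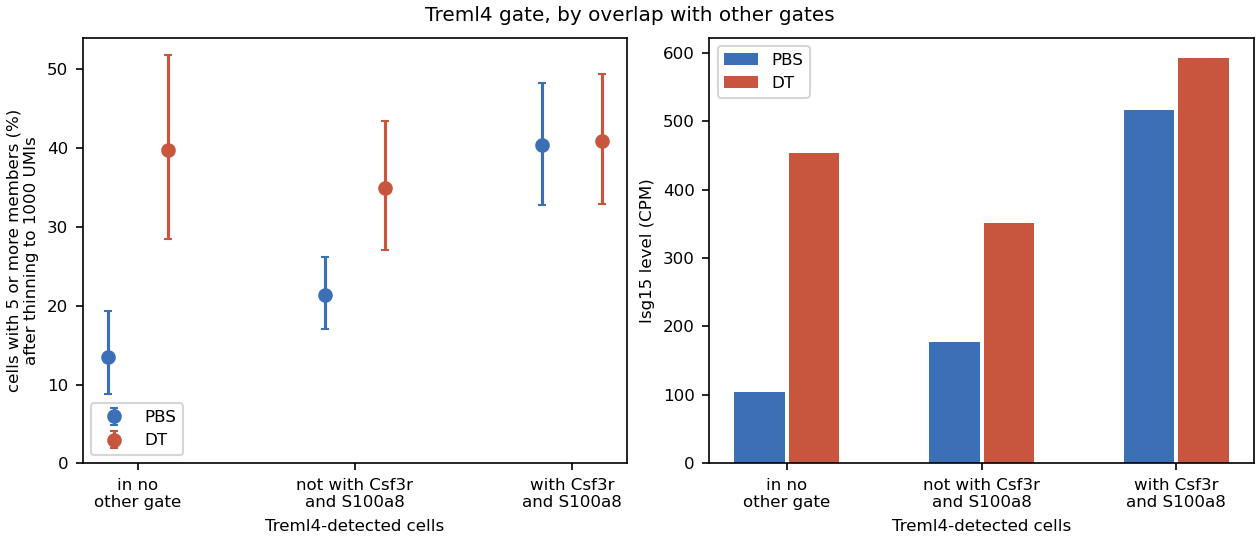
Share of thinned cells with 5 or more members (percent, 95% Clopper-Pearson intervals) and Isg15 level (CPM) in parts of the Treml4 gate. The libraries lie at 40.4% and 41.0% among cells that also carry Csf3r and S100a8, and at 13.5% and 39.7% among cells in no other gate.

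In macrophages a few members were lower in DT. In the C1qa gate 3 of 35 members were at least 1.5-fold lower in DT (1.49% of 12700 genes were) and none was higher (0.811% of genes were). Ifit1 was at 76.4 and 45.3 CPM (log2 ratio -0.69, interval -0.98 to -0.53), Ifit3 at 61.6 and 36.9 (-0.67) and Usp18 at 31.8 and 17.7 (-0.70). Each of the 3 kept the fold in 9 of 12 alternative settings and missed it by mean CPM over cells (-0.53, -0.23 and -0.40), by the mean of the deposited log2 values (-0.52, -0.06 and -0.27) and with 20 CPM added (-0.56, -0.52 and -0.46). Over the members 28 of 35 were below 0, while 53.8% of genes were above 0. The members' median was -0.17 beside 0.02 over all genes, and -0.39 in male-called cells. The share of cells with 5 or more members did not follow, at 22.6% and 24.7% with overlapping intervals.

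The dendritic cell gates are small, and in the Siglech gate members differed in both directions. In that gate (91 and 55 cells) 4 of 34 measured members were at least 1.5-fold higher (9.48% of 7091 genes were) and 5 lower (8.29% of genes were). Ifit2 was at 32.1 and 80.1 CPM (log2 ratio 1.20) and Mx1 at 33.4 and 75.7 CPM (1.07), while Rsad2 was at 69.4 and 15.2 CPM (-1.89), Gbp2 at 168 and 71.4 CPM (-1.18) and Ifit1 at 69.4 and 30.3 CPM (-1.08). Ifi44 and Ifih1 were the other higher genes, Rtp4 and Igtp the other lower ones. Neutrophil markers in this gate summed to 3826 CPM in PBS and 245 in DT. In the 18 PBS and 20 DT cells that no other gate held, the ratio of Gbp2 was 0.35 and that of Rsad2 1.97, the reverse of the whole gate, and with 2 UMIs of Siglech required that of Ifit1 was 0.64. By mean deposited log2 value the ratio of Mx1 was -0.17. Over 11 alternative settings Gbp2 kept the fold in 8, Ifit1 and Mx1 in 9 each, Rsad2 in 10 and Ifit2 in 11. Bst2, the member that marks this gate, was at 2556 and 2049 CPM (-0.32). In the Cd209a gate (114 and 119 cells) 3 of 35 members were higher (4.1% of 8605 genes were) and none lower (5.95% of genes were): Ifit1 at 46.2 and 104 CPM (1.09), Ifit2 at 56.5 and 92.9 CPM (0.67), and Cmpk2 on 12 and 23 UMIs. Over 11 alternative settings Ifit1 kept the fold in 10 (0.52 by the mean of the deposited log2 values) and Ifit2 in 8 (0.46 with 2 UMIs of Cd209a required). Macrophage markers in the Cd209a gate summed to 373 CPM in PBS and 1288 in DT and neutrophil markers to 1046 and 479, and their part in the result was not tested. The median was 0.08 beside -0.03 over all genes.

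Summed by role, the genes did not keep 1 direction across gates. The ISG15 system had its lowest ratio in the Ncr1 gate (203 CPM in PBS, 98.4 in DT, log2 ratio -1.05, interval -1.35 to -0.75) and its highest in the Treml4 gate (365 and 538, 0.56). The interferon-gamma GTPases were at 869 and 1344 CPM in the Treml4 gate (0.63), 1036 and 1262 in the Csf3r with S100a8 gate (0.29), and 670 and 420 in the Siglech gate (-0.67). The translation and RNA genes were at 283 and 186 CPM in the Foxp3 gate (-0.61) and 354 and 523 in the Cd209a gate (0.56). The sum of the blocks of entry, budding and replication stayed closest, with its widest ratio at -0.25 in the Treml4 gate. There Ifitm3 (-0.39) gave 2816 and 2144 of its 3362 and 2828 CPM. The others of this group were above 0 in that gate: Rsad2 (0.73), Cmpk2 (0.51), Rtp4 (0.41), Mx1 (0.13) and Bst2 (0.04). The widest ratio of the sensors and factors was -0.37 in the Foxp3 gate.

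Upstream genes of the pathway differed little over all cells. Of 21 listed interferon genes, Ifng alone was among the columns analysed here: its UMIs were in 4.94% of all cells in PBS against 3.41% in DT, with levels of 35.7 and 32.6 CPM (log2 ratio -0.11), with its highest level in the Cd4 gate (136 and 208 CPM, 0.60). None of the 6 receptor genes, 10 measured sensors and adaptors, 6 interferon regulatory factors or 6 feedback inhibitors passed the fold in all cells. By that fold 0.785% of 15928 measured genes were higher there and 0.559% lower. The receptor gene Ifngr1 was at 350 and 361 CPM (0.04). Irf1, which interferon-gamma induces, was at 165 and 199 CPM (0.27), and Irf8, a factor of dendritic cells and monocytes, at 312 and 254 CPM (-0.29).

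Of 60 further interferon-stimulated genes, 1 was higher by 1.5-fold in all cells (0.785% of 15928 genes were) and none was lower (0.559% of genes were). The higher gene was Ifitm1, at 267 and 408 CPM (log2 ratio 0.60). The most abundant of the 60, Ifi27l2a, was at 1007 and 864 CPM (-0.22). Of 18 interferon-gamma targets 1 was higher, Ido1, on 24 UMIs in PBS and 106 in DT. Within the Treml4 gate 7 of the 16 measured targets were higher (4.63% of 11141 genes were) and none lower (4.89% of genes were). The higher ones included Cxcl9 at 820 and 1257 CPM (0.61) and Cxcl10 at 357 and 744 CPM (1.05), chemokines that draw Cxcr3-bearing T cells. Within the Siglech gate 7 of 13 measured targets were lower (8.29% of 7091 genes were) and 1 higher (9.48% of genes were). Cxcl9 was at 393 and 90.9 CPM there (-2.05). Ifng itself was at 12.2 and 2.00 CPM in the Treml4 gate, on 50 UMIs in PBS and 4 in DT.

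The members' own profiles over the 22 combinations of gate and library were compared with the mean of the other members, as a description, since gates share cells and libraries. Isg15 (Pearson r 0.96), Slfn5 (0.95), Parp14 (0.91) and Irf7 (0.91) followed the others most closely. Bst2 (0.47), Phf11b (0.45), Irf9 (0.37), Igtp (0.29) and Slfn8 (-0.02) followed them least. Among 11754 other genes with enough UMIs, the profiles most like the members' mean were those of Irgm1 (0.948), Gpr35 (0.928), Ptpn1 (0.926), Etv6 (0.923) and Mvp (0.922). Irgm1 is an interferon-inducible GTPase of the same family as Igtp, and it was at 111 CPM in PBS and 121 in DT over all cells.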

How the data were processed

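Single-cell RNA was measured in 2 libraries, PBS and DT. The submitters' processing notes name STAR, Partek, Seurat and the mm10 genome, with no settings or annotation release. The authors deposited log2 values per cell and gene, which the values show to be log2(CPM + 1). The analysis had been designed for UMI counts. The log transform was therefore reversed, and the smallest CPM of a cell was taken as 1 UMI, by which 100% of the values above 0 came out whole within 1%, and these UMIs were used. The genes and lists were chosen with earlier results of these data known.

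Cells under 500 UMIs, under 200 genes or over 10% mitochondrial UMIs were removed (51 in PBS, 307 in DT). In all, 8 barcodes occurred in both libraries. Gates were kept cells with at least 1 UMI of each gate gene. UMIs were summed over a gate and scaled to CPM. Ratios had 5 CPM added to both sides and used genes with at least 20 UMIs in the gate over both libraries, and 1.5-fold was the limit for naming a difference. Per gate, the 3 highest and 3 lowest members past that fold with at least 50 UMIs were named with values, as were the top and bottom gates of each member and the 5 most abundant members. Shares of cells used cells thinned to 1000 UMIs with a fixed seed. All intervals are at 95% and exact, from the Clopper-Pearson method (shares) or the conditional binomial (UMI ratios, with no CPM added), and they cover counting error only. Cells with a UMI of Ddx3y, Eif2s3y, Kdm5d or Uty and none of Xist were called male, the reverse female, and used where both libraries had at least 50 in the gate. Likeness is Pearson's r over 22 gate and library profiles, for genes with at least 200 UMIs. The computation ran in Python 3.11.15 with numpy 2.4.6, pandas 2.3.3 and scipy 1.17.1, and was tested on simulated data. Alternatives varied the cell filter, gate overlap, gate UMIs, sex, shared barcodes, members, cell weight, scaling, free RNA, added CPM, minimum UMIs, depth and the cut on members. Transcript similarity used GENCODE M21 transcripts of GRCm38, the assembly of mm10.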

Additional observations from a re-analysis of the deposited data

Results flagged for a closer look

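For 7 of the 35 genes the log2 ratio of DT over PBS passed 1.5-fold in opposite directions in different gates, as it did for 4.25% of the 13345 genes measured in 2 or more gates. Each gate holds 1 library per group, so the difference between gates was not tested. Isg15 was at 0.66 in the Treml4 gate, -1.19 in the Ncr1 gate and -0.63 in the Cd79a gate. Gbp2 was at 0.75 in the Treml4 gate and -1.18 in the Siglech gate. Rsad2 was at 0.73 in the Treml4 gate, 0.90 in the Ncr1 gate and -1.89 in the Siglech gate. Ifit1 was at 1.09 in the Cd209a gate, -0.69 in the C1qa gate, -0.65 in the Foxp3 gate, -0.77 in the Ncr1 gate and -1.08 in the Siglech gate. Ifit2 was at 0.67 in the Cd209a gate, 1.20 in the Siglech gate and -0.80 in the Cd79a gate. Ifit3 was at 0.85 in the Cd4 gate, -1.10 in the Foxp3 gate, -0.71 in the Ncr1 gate, -0.67 in the C1qa gate and -0.62 in the Cd79a gate. Mx1 was at 1.07 in the Siglech gate and -0.63 in the Cd79a gate. Several of these rest on few UMIs: Mx1 had 26 in PBS and 35 in DT in the Siglech gate, and Rsad2 had 54 and 7 there. Some also rest on few cells: of the 55 DT cells of the Siglech gate, 1.82% held a UMI of Ifit1 and 5.45% one of Rsad2. The directions of Gbp2, Ifit1, Rsad2 and Mx1 in the Siglech gate, of Rsad2 in the Ncr1 gate and of Isg15 in the Cd79a gate turned under at least 1 alternative setting.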

How the results depend on the processing

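No paired analysis was possible because each group is 1 library. Every value is from 1 library per group, intervals cover counting error only, and differences between mice, sexes and toxin treatment cannot be told apart. Depth limits the rarer members: in the Siglech gate 15 of 34 measured members had 100 UMIs or more. Among the alternatives, 71 of 136 summed ratios, 130 of 160 medians and 120 of 137 share differences stayed within the counting interval of the reported value, and of 299 ratios of single named members 243 stayed past 1.5-fold in their direction, 49 did not reach it and 7 reversed. The summed ratio was below 0 in the Foxp3, Ncr1 and Siglech gates under each alternative run, and above 0 in the Treml4 gate (0.01 to 0.51). None of these alternatives was within 1 sex in the Foxp3, Siglech and Treml4 gates, which had too few sexed cells. In the Ncr1 gate male-called cells alone could be taken. The setting that leaves out cells of the neutrophil gate was chosen after seeing the data. Dropping the cell filter or the shared barcodes could change little where few cells were concerned, as in the Cd4 gate. Such runs are counted among those that stayed. The values that moved follow, as log2 ratios, as percentage points for shares and as counts for pairs of a member and a gate (16 higher and 25 lower as reported), and the cause of each shift was not tested. With 20 CPM added, 9 pairs were higher and 11 pairs were lower. With a cut of 3 members, share differences were -7.34 in Ncr1, -6.08 in Cd79a and -12.2 in Siglech. With a cut of 8 members, share differences were 0.0713 in Cd79a. With at least 100 UMIs required, 7 pairs were higher and 15 pairs were lower. By means of the deposited log2 values, summed ratios were -0.12 in Cd4, -0.063 in Cd8b1, -0.14 in Foxp3, -0.14 in Ncr1, -0.31 in Cd79a, -0.14 in neutrophil, -0.11 in monocyte, 0.024 in Treml4 and 0.013 in all cells. Medians were -0.11 in Cd4, -0.10 in neutrophil, -0.11 in monocyte, 0.042 in Treml4 and 0.013 in all cells. Reversed genes were Mx1 -0.17 in Siglech. With exclusive gates, summed ratios were 0.073 in Cd4, 0.22 in Cd8b1, -0.37 in Foxp3, -0.45 in Ncr1, 0.088 in neutrophil, 0.51 in Treml4, -0.19 in C1qa and -0.17 in Cd209a. Medians were 0.29 in Cd8b1, 0.17 in neutrophil, 1.04 in Treml4, -0.32 in C1qa and -0.10 in Cd209a. Share differences were 26.2 in Treml4. 42 pairs were higher. Reversed genes were Gbp2 0.35 in Siglech, Rsad2 1.97 in Siglech. In female-called cells, summed ratios were 0.44 in Cd79a and 0.34 in all cells. Medians were 0.14 in Cd79a and 0.40 in all cells. Share differences were 0.707 in Cd79a and 6.53 in all cells. Reversed genes were Isg15 0.12 in Cd79a. With free RNA subtracted, summed ratios were -0.41 in Ncr1 and -0.29 in Cd79a. With 2 UMIs of a gate gene required, summed ratios were 0.036 in Cd4, 0.037 in Cd8b1, -0.45 in Foxp3, -0.0070 in neutrophil, 0.25 in Treml4 and -0.12 in C1qa. Medians were -0.49 in Foxp3, 0.023 in neutrophil, 0.062 in monocyte and 0.51 in Treml4. Share differences were 17.6 in Treml4. 31 pairs were higher. Reversed genes were Ifit1 0.64 in Siglech. In male-called cells, summed ratios were -0.31 in Cd8b1, -0.56 in Ncr1, -0.59 in Cd79a, -0.13 in neutrophil, 0.29 in monocyte, -0.40 in C1qa and -0.090 in all cells. Medians were -0.30 in Cd8b1, -0.55 in Ncr1, -0.52 in Cd79a, -0.11 in neutrophil, 0.069 in monocyte, -0.39 in C1qa and -0.18 in all cells. Share differences were -5.42 in Cd8b1, -10.2 in neutrophil and -1.78 in all cells. Reversed genes were Rsad2 -0.077 in Ncr1. By mean CPM over cells, summed ratios were -0.12 in Cd4, -0.32 in Foxp3, -0.33 in Cd79a, -0.042 in neutrophil, 0.0033 in monocyte, 0.14 in Treml4, 0.0085 in C1qa, -0.075 in Siglech, 0.17 in Cd209a and 0.19 in all cells. Medians were -0.11 in Cd4, 0.022 in neutrophil and 0.17 in all cells. With median-of-ratios scaling, summed ratios were -0.072 in Cd4, -0.29 in Cd79a, -0.11 in C1qa, -0.24 in Siglech and 0.087 in all cells. Medians were 0.077 in all cells. Without thinning, share differences were -2.83 in Cd8b1, -15.2 in Cd79a, -6.54 in neutrophil, -6.75 in Treml4 and -2.31 in all cells. With thinning to 2000 UMIs, share differences were -6.18 in Cd79a. Without Ifitm3 and Bst2, summed ratios were 0.030 in Cd8b1, -0.38 in Ncr1, 0.13 in neutrophil, 0.069 in monocyte, 0.43 in Treml4, -0.16 in C1qa and 0.18 in all cells. Without Igtp, Tgtp2, Gbp2 and Ifi47, summed ratios were -0.027 in neutrophil, 0.015 in monocyte, 0.0058 in Treml4 and 0.11 in all cells. Without cells of the neutrophil gate, summed ratios were -0.11 in Cd8b1, -0.36 in Foxp3, -0.56 in Ncr1, -0.013 in C1qa and -0.026 in Cd209a. Medians were -0.035 in Cd4, -0.070 in Cd8b1 and -0.46 in Ncr1. Reversed genes were Rsad2 -0.73 in Ncr1.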
